A study of Mus musculus with 12 samples.

Results

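The probes described here are 131 catalogue probes of a mouse expression array that were higher than in untreated colorectal tissue at every later time point of a colon cancer model. They were selected on their measured values in the authors' deposited log2 table. A probe was kept if its ID carried the catalogue prefix and its mean over 3 arrays at 1, 2 and 10 weeks was in each case at least 1 above its 0-week mean. Every later array also had to lie above every 0-week array, the 2-week mean had to exceed the 1-week mean by less than 1, and the highest group mean had to reach 6. The 131 members are 0.253% of the 51691 catalogue probes, on arrays that hold 145548 probes other than controls. Of the 93857 probes of the custom design on the same arrays, 76 (0.081%) met the same thresholds on values; they are not members.

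Total RNA of colorectal tissue from male C57BL/6 mice was labelled with Cy3 and hybridised to 12 arrays, 3 per time point. The 0-week arrays came from untreated mice. The 1-week arrays came from mice given azoxymethane (AOM) at 10 mg/kg and no dextran sulfate sodium (DSS), and the labels call this tissue colitis. The 2-week arrays came from mice given AOM and then, from day 7, the first course of 2% DSS in drinking water, and are also labelled colitis. The 10-week arrays, labelled tumour, came from mice given AOM and 3 cycles of DSS. The labels give no age, and nothing in them says that the 3 arrays of a group came from different animals. P-values below therefore reflect only how far these arrays spread, which may be technical.

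AOM is a carcinogen that is activated in the body to a DNA-alkylating agent and targets the colon epithelium of rodents. DSS in drinking water injures the colonic epithelium and causes inflammation, which speeds tumour formation after AOM. An oligonucleotide probe reports the RNA whose sequence it matches, so without that match its signal names a sequence and not a gene. The files do not pair these probes with genes, and the labelled tissue could therefore not be checked against its markers. In bulk tissue, a change in the cells present and a change in RNA per cell cannot be told apart.

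From 48439 to 64592 probes were called well above background on an array, most of them on the 10-week arrays. Each slide held arrays of 1 time point only. The 3 2-week arrays shared a slide, and the 3 10-week arrays shared another that was scanned on a different day from all others. Slide and time point therefore cannot be told apart in any comparison between groups, those with 0 weeks included. Levels below are log2 processed signals after subtracting the array's 75th percentile over the 42363 probes that passed background on each of the 12 arrays. A level of 0 is thus that percentile. Probes differ in how well they bind, so a higher level on 1 probe than on another does not show more RNA.

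The member sequences on which the tested differences turn are those called at 10 weeks against 2 weeks with the largest changes and no overlap between the arrays of both groups. All are 60-base probes, written 5′ to 3′ as in the deposited scanner files, with capitals marking AATAAA, the hexamer best known as a polyadenylation signal. The first 6 were higher at 10 weeks.
A_55_P2024803: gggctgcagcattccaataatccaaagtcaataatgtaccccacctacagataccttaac
A_51_P460279: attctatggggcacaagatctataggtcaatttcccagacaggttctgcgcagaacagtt
A_52_P381553: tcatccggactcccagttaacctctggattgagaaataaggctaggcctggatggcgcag
A_55_P2114953: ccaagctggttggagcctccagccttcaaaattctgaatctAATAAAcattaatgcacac
A_52_P70949: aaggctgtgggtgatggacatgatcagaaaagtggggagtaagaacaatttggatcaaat
A_51_P385099: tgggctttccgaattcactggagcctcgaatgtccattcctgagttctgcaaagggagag

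The other 6 were lower at 10 weeks than at 2 weeks.
A_66_P116441: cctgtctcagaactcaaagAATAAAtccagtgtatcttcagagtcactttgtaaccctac
A_51_P261517: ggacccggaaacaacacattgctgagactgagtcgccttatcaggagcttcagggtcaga
A_51_P205334: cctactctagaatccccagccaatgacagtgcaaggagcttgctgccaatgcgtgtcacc
A_55_P2745402: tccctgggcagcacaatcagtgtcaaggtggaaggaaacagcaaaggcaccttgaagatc
A_51_P428708: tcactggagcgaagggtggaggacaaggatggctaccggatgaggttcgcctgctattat
A_66_P117032: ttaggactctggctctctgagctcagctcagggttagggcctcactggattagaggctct

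Another set is shown for a feature at the probe's 5′ end. These 6 members began with a run of 5 C, given in capitals together with AATAAA where it occurs.
A_52_P476877: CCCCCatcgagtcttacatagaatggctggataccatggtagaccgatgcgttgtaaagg
A_55_P1959041: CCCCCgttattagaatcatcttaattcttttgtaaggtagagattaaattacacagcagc
A_55_P2037081: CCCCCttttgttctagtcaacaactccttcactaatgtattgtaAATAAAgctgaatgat
A_55_P2130555: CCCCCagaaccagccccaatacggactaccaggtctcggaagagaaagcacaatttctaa
A_55_P2494857: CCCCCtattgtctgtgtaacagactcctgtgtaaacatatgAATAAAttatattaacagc
A_55_P2924238: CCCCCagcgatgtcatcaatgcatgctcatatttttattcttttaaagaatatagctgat

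The rule fixes that the members were higher than the untreated tissue at each later time, so their differences from 0 weeks are a description and no test. The median difference from 0 weeks was 1.47 on the log2 scale at 1 week (range 1.03 to 5.59), 1.65 at 2 weeks (0.94 to 4.50) and 1.89 at 10 weeks (0.93 to 4.74). Over all tested catalogue probes the medians were 0.02, 0 and 0.10. The 3 comparisons share the 0-week arrays. By limma on all tested probes, 86 members passed an adjusted p of 0.05 as higher at 1 week, 115 at 2 weeks and 131 at 10 weeks; among tested catalogue probes 0.862%, 5.23% and 20.4% did. Nothing is read from those counts, since the rule used the same contrasts. The rule was stated on the deposited table, and 124 of the 131 met its differences and order again on the scaled scanner values. Under normexp, a background correction compared below, 34 did.

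The thresholds fell within a continuous range of values in the deposited table. On the 1-week difference, A_55_P1966189 was just inside at 1.003 and A_55_P2082733 just outside at 0.998, and 101 catalogue probes failed on this threshold alone. At 2 weeks, A_55_P1981479 was inside at 1.008 and A_55_P2823539 outside at 0.996, with 23 failing only there. At 10 weeks, A_55_P2064771 was inside at 1.011 and A_51_P258372 outside at 0.969, with 20 failing only there. The step from the highest 0-week array to the lowest later array was 0.027 for the member A_51_P303424 and -0.053 for A_52_P150547, and 18 probes failed only on this order. On the difference of 2 weeks minus 1 week, A_55_P2166488 was inside at 0.989 and A_52_P95161 outside at 1.002, with 44 failing only there. The level threshold separated A_55_P2054445 at 6.021 from A_66_P113043 at 5.995, and 120 probes failed on it alone.

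All 131 members were tested, and 104 of them were well above background on all 3 0-week arrays. On the 1-week and the 2-week arrays 130 members were above background on all 3, and at 10 weeks all 131 were. At 0 weeks 8 members were not well above background on any array, so the size of their difference is uncertain. For these a floored fold was computed. It sets the mean of the later arrays against the higher of 2 values on each 0-week array. These are the probe's own signal and the floor, the lowest signal of a probe well above background on that array. The floored fold is not a strict lower bound, since probes also failed background at signals above the floor, which averaged -5.28. A_55_P1967491 measured -4.87, -4.84 and -4.47 at 0 weeks and passed on 2 of these arrays. With the floor, A_52_P338066 was 11.5-fold higher at 10 weeks than at 0 weeks, with measured means of -1.76 and -6.21. A_51_P214127 was 9.14-fold higher at 10 weeks, with means of -2.09 and -5.72. A_55_P1962723 was 18.6-fold higher at 1 week but 3.05-fold higher at 10 weeks, so the floored fold differed between times for the same probe. A_51_P339843 was 11.9-fold higher at 1 week and 6.57-fold at 10 weeks. The other floored folds at 10 weeks ran from 1.52-fold for A_52_P480044 to 8.18-fold for A_52_P233342.

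The largest difference from the untreated tissue in the deposited table was that of A_51_P169476. Its scaled levels were -4.53, -3.89 and -4.27 at 0 weeks and 0.42, 2.59 and 1.08 at 1 week. They were -1.59, -0.34 and -0.64 at 2 weeks and 0.47, -0.55 and 1.61 at 10 weeks. The probe was above background on all 12 arrays, and its 1-week mean was 48.2-fold and its 10-week mean 26.7-fold the 0-week mean. Its mean was highest at 1 week, and the 2-week and 10-week arrays overlapped (adjusted p = 0.106 by limma). A_51_P339843 had the same order of means, at -7.16, -1.72, -3.91 and -2.57 from 0 to 10 weeks, with SDs of 0.30, 0.89, 0.59 and 0.96 (n = 3 each).

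A pair of members stood near the top of the list while their untreated arrays disagreed. A_55_P2016462 measured -7.18, -7.15 and -3.73 at 0 weeks, and of these only 1 array was well above background. Its later arrays ran from -2.60 to -0.55. A_51_P461665 measured -7.34, -6.29 and -4.52 at 0 weeks, again above background on 1 array, and -3.06 to -0.68 later. For both, 0-week replicate 3 was the high array, and the SD at 0 weeks, 1.99 and 1.42, was among the widest of the members. Their group means at 1, 2 and 10 weeks were -1.84, -1.63 and -1.43 for the former and -1.66, -1.86 and -1.61 for the latter, which differ by less than the spread between arrays.

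At the other end, the smallest 10-week differences in the deposited table belonged to 5 probes whose 10-week arrays still lay clear of the untreated ones. A_52_P38639 measured -3.99, -3.39 and -2.99 at 0 weeks and -1.71, -2.40 and -2.38 at 10 weeks, a difference of 1.29 in the scaled values and 1.01 in the deposited ones. A_55_P2182273 measured -4.04, -4.00 and -3.82 at 0 weeks and -1.75, -2.76 and -3.17 at 10 weeks. In both probes the 10-week arrays spread over a wide range, and the lowest of them lay above the highest 0-week array. A_55_P2201395 measured 1.1, 1.02 and 1.24 at 0 weeks and 1.88, 2.45 and 1.96 at 10 weeks, against 2.39, 2.45 and 1.96 at 2 weeks. A_55_P2064771 and A_66_P116441, described below, complete this group.

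The 10 members with the highest scaled signals after 0 weeks include the following, and no probe spot was saturated. A_55_P2064771 measured 5.69, 5.90 and 6.16 at 0 weeks, 6.99, 7.78 and 7.15 at 1 week, 7.23, 7.11 and 7.15 at 2 weeks, and 6.38, 7.05 and 7.12 at 10 weeks. Its lowest later array was 10-week replicate 1, which still lay above the untreated arrays. It has the same base at 57 of 60 positions as A_51_P197528, a catalogue probe outside the members, 48 of them in 1 unbroken stretch, and the shared stretch is in capitals here because the values of both probes bear on how the rule drew its line.
A_55_P2064771: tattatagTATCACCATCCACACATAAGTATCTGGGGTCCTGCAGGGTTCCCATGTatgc
A_51_P197528: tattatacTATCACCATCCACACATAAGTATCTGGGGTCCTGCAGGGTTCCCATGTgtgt
The second probe had group means of 5.99, 7.39, 7.33 and 6.77 from 0 to 10 weeks. It missed the rule through its 10-week difference in the deposited table, 0.843, while its differences at 1 and 2 weeks were 1.359 and 1.134. The near-identical pair thus fell on both sides of the threshold at 10 weeks. Whether the second probe met the order of arrays in the deposited table was not looked at. In the scaled values its lowest later array was 6.28 and its highest 0-week array 6.26.

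The values of other members with high levels were as follows. A_66_P134717 measured 1.05, 1.37 and 1.55 at 0 weeks, 3.02, 2.75 and 2.99 at 1 week, 2.62, 2.70 and 2.97 at 2 weeks, and 3.17, 3.26 and 3.32 at 10 weeks. Its 10-week arrays lay above all 1-week and 2-week arrays, with an adjusted p of 0.052 against 2 weeks and 0.169 against 1 week by limma. Under 4 of the 6 scalings compared below it was called higher than at 2 weeks, and under 2 higher than at 1 week. A_55_P1974760 measured 0.54, 0.84 and 0.99 at 0 weeks and 2.58, 2.56 and 2.54 at 10 weeks, with adjusted p values of 0.256 and 0.172 for the same comparisons. A_51_P265495 had group means of 5.16, 6.68, 6.64 and 6.39 from 0 to 10 weeks, and its 10-week arrays overlapped those of both other treated groups. A_51_P112355 measured 2.57, 3.29 and 3.09 at 1 week, above the 10-week arrays at 2.38, 2.16 and 2.28 (difference -0.71 ± 0.26 SE, adjusted p = 0.0675 by limma). The members A_55_P2118067 and A_51_P390538, also of this group, had differences of 0.15 ± 0.16 and -0.25 ± 0.23 (SE) at 10 weeks against 2 weeks.

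Each member was tested at 10 weeks against 2 weeks and against 1 week. The rule did not use these contrasts, but it used each group's mean. It kept only probes at least 1 above 0 weeks at 10 weeks, which limited how far a member could fall. Shares of members set beside unselected probes, here and in the paragraphs below, are therefore a description and no test of the list. Against 2 weeks, 26 members were called higher (19.8%) and 7 lower (5.34%) at an adjusted p of 0.05 by limma across all 62391 tested probes. Among all tested probes 23.5% were higher and 7.56% lower, and among the 33174 tested catalogue probes 16.4% were higher and 12.2% lower. The share of members called higher thus lay between the share of catalogue probes and that of all probes. Of the called members, 16 rose and 1 fell by at least 2-fold. The share of catalogue probes with changes of that size was not counted, so nothing is read from these numbers. The members' median difference was 0.22, beside 0.06 for catalogue probes and 0.27 for all tested probes.

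The balance of rises and falls against 2 weeks moved with the scaling. When all probes set the 75th percentile, 10 members were higher (7.63%) and 25 lower (19.1%), beside 6.12% and 32.7% of tested catalogue probes. Quantile normalization gave 18 and 13 members (13.7% and 9.92%, beside 7.66% and 16.2%). Cyclic loess gave 12 and 14 of the 131 members, beside 6.77% and 13.8% of tested catalogue probes. Normexp background correction gave 36 and 12 (27.5% and 9.16%, beside 9.68% and 15.6%), and the log2 values as deposited 18 and 12 (13.7% and 9.16%, beside 7.58% and 16.1%). Those scalings put the median difference of all tested probes at -0.14, 0.01, 0, 0.01 and 0.01. Under all 6 scalings, 6 members were called higher and 7 lower, and no member was called both ways. The direction of the list as a whole between 2 and 10 weeks is therefore not given.

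Against 1 week, 37 members were higher at 10 weeks (28.2%) and 3 lower (2.29%). The shares were 17.5% and 8.23% of all tested probes, and 14.6% and 13.2% of tested catalogue probes. The members' median difference was 0.39, beside 0.08 for catalogue probes and 0.24 for all. At least 2-fold rises numbered 21 and falls 2, again with no share of catalogue probes counted. When all probes set the 75th percentile, 17 members were higher (13%) and 11 lower (8.4%), beside 5.79% and 27.2% of tested catalogue probes. Quantile normalization and the log2 values as deposited each gave 27 and 5 members (20.6% and 3.82%), beside 8.81% and 17.6% of the catalogue for the former and 8.75% and 17.5% for the latter. Cyclic loess gave 25 and 5 (19.1% and 3.82%, beside 8.46% and 15.3%), and normexp 44 and 7 (33.6% and 5.34%, beside 11.9% and 16.6%). The median difference of all tested probes was -0.11, 0.01, 0.02 and 0.03 under those 4 scalings and 0.01 in the deposited table. Under all 6 scalings 16 members were called higher and 3 lower. The counts also moved with single arrays, as did the shares of catalogue probes. With all arrays 40 members were called in either direction. Without the second 10-week array 24 were (16.8% higher and 1.53% lower, beside 9.62% and 8.63% of tested catalogue probes). Without the first, 25 were called (17.6% and 1.53%, beside 9.64% and 8.88%). Leaving out 1-week replicate 2 gave 26 (19.1% and 0.763%, beside 9.14% and 7.99%).

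Counted by arrays, 51 members had all 10-week arrays above all 2-week arrays, 18 had all of them below, and 62 overlapped. Of tested catalogue probes, 27.1% lay above and 20.7% below in this way, beside 38.9% and 13.7% of the members. Against 1 week the numbers were 54, 9 and 68, or 41.2% above and 6.87% below, beside 25.6% and 21.6% of tested catalogue probes. The means of the later groups rose from 1 to 2 to 10 weeks in 39 members, and in 32 more the 10-week mean was highest with the 1-week mean in the middle. The 2-week mean was highest in 39 members, 26 with 1 week lowest and 13 with 10 weeks lowest. The 1-week mean was highest in 21, of which 14 had the 2-week mean lowest and 7 the 10-week mean lowest. These shares and orders are descriptive. The rule limited how far members could fall by 10 weeks, and the orders include differences within the spread between arrays.

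The largest rise from 2 to 10 weeks was that of A_55_P2024803. It measured -3.44, -3.08 and -2.86 at 0 weeks, -1.88, -1.17 and -1.18 at 1 week, -2.20, -1.68 and -1.82 at 2 weeks, and 0.07, 0.64 and 0.29 at 10 weeks. The 10-week arrays stood apart from all others, 2.23 ± 0.25 (SE) above the 2-week mean or 4.70-fold (adjusted p = 0.000325), and 1.74 above the 1-week mean (adjusted p = 0.00124 by limma). The probe was above background on all 12 arrays. A step at 1 week was therefore followed by a level at 2 weeks that overlapped it, and by a further step at 10 weeks.

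A_51_P460279 was close to or below background before 10 weeks. It measured -5.76, -7.19 and -7.21 at 0 weeks, -5.46, -4.68 and -4.70 at 1 week, -4.85, -4.60 and -4.11 at 2 weeks, and -2.57, -2.14 and -2.92 at 10 weeks. None of the 0-week arrays and 2 of 3 at both 1 and 2 weeks were above background. The 10-week arrays were 3.94-fold above the 2-week arrays (1.98 ± 0.39 SE, adjusted p = 0.00531 by limma) and did not overlap them. Because 1 of the 2-week arrays was not above background, the size of this fold is uncertain, and with normexp the difference was 0.66. With cyclic loess it was 1.29 and the adjusted p 0.0621.

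A_52_P381553 measured -5.29, -6.12 and -4.76 at 0 weeks, -3.82, -4.78 and -4.14 at 1 week, -4.24, -4.40 and -4.52 at 2 weeks, and -2.59, -2.35 and -2.28 at 10 weeks. Its lowest 1-week array lay just below its highest 0-week array in these scaled values, and only 1 of the 0-week arrays was above background. The 10-week arrays were 3.95-fold above those at 2 weeks (adjusted p = 0.0022 by limma), a log2 difference of 1.98 that was 0.63 with normexp.

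A_55_P2114953, which carries AATAAA near its 3′ end, measured -5.22, -5.26 and -5.03 at 0 weeks, -4.86, -2.84 and -4.32 at 1 week, -4.51, -4.07 and -4.10 at 2 weeks, and -2.46, -2.05 and -2.33 at 10 weeks. Replicate 2 at 1 week was far above the other arrays of that group, whose SD was 1.05 (n = 3). The 10-week arrays lay above that array and 3.85-fold above the 2-week mean (adjusted p = 0.00605 by limma), a log2 difference of 1.95 that was 0.80 with normexp.

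A_52_P70949 was higher at each later time than at the one before. Its levels were -4.84, -6.50 and -5.95 at 0 weeks, -3.79, -4.08 and -3.90 at 1 week, -3.14, -3.56 and -2.63 at 2 weeks, and -1.88, -1.18 and -1.45 at 10 weeks. No group overlapped the next, and 1 of the 0-week arrays was above background. The rise from 2 to 10 weeks was 3.04-fold (1.61 ± 0.38 SE, adjusted p = 0.0108 by limma), and that from 1 to 10 weeks was 2.42 on the log2 scale (adjusted p = 0.00187). The former was 1.19 with cyclic loess (adjusted p = 0.0596) and 0.87 with normexp.

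A_51_P385099 measured -3.55, -2.91 and -2.51 at 0 weeks, -2.05, -1.64 and -1.02 at 1 week, -1.58, -1.09 and -0.97 at 2 weeks, and -0.16, 1.15 and -0.01 at 10 weeks. Replicate 2 was the high array at 10 weeks. All 10-week arrays lay above the 2-week arrays (2.91-fold, adjusted p = 0.0149 by limma), and the difference was 1.13 without that array.

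Among the falls, A_66_P116441 peaked at 2 weeks. It measured -3.78, -3.79 and -3.47 at 0 weeks, -2.17, -1.97 and -2.31 at 1 week, -1.13, -1.39 and -0.88 at 2 weeks, and -2.49, -2.14 and -2.45 at 10 weeks. The 10-week arrays were 2.34-fold below the 2-week arrays (-1.23 ± 0.18 SE, adjusted p = 0.00145 by limma) and overlapped the 1-week arrays (-0.21 ± 0.18 SE, adjusted p = 0.404). It was the member whose fall exceeded 2-fold among those called lower.

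A_51_P261517, A_55_P2745402, A_51_P428708 and A_66_P117032 showed the same order, with 10 weeks below 2 weeks and overlapping 1 week. A_51_P261517 measured -1.26, -0.88 and -0.69 at 0 weeks, 0.28, 1.13 and 0.40 at 1 week, 1.21, 1.50 and 1.46 at 2 weeks, and 0.37, 0.88 and 0.10 at 10 weeks. Its fall was 1.92-fold (adjusted p = 0.0227 by limma), and the adjusted p passed 0.05 in 4 of the fits that left out 1 array, reaching 0.0767 without 10-week replicate 3.

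A_55_P2745402 measured -1.5, -1.12 and -1.35 at 0 weeks, -0.14, 0.00 and -0.02 at 1 week, 0.54, 0.94 and 1.20 at 2 weeks, and 0.14, 0.19 and -0.29 at 10 weeks. A_51_P428708 measured -1.78, -1.41 and -1.34 at 0 weeks, -0.10, -0.17 and 0.06 at 1 week, 0.50, 0.73 and 1.08 at 2 weeks, and 0.13, 0.00 and -0.34 at 10 weeks. The falls were 1.84-fold and 1.79-fold (adjusted p = 0.00947 and 0.011 by limma), and in both probes the 2-week arrays stood above all others while 1 and 10 weeks overlapped. The 10-week mean differed from the 1-week mean by 0.07 ± 0.20 and 0.00 ± 0.20 (SE).

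A_66_P117032 was measured by 10 spots on each array, with a median SD over spots of 0.07 against a mean SD over the arrays of a group of 0.26. It measured -2.41, -1.79 and -1.78 at 0 weeks, -0.81, -0.54 and -0.96 at 1 week, 0.01, 0.07 and 0.49 at 2 weeks, and -0.57, -0.40 and -0.81 at 10 weeks. The fall was 1.72-fold (adjusted p = 0.0217 by limma), and without 2-week replicate 3 it was -0.63 with an adjusted p of 0.0856. The difference was -0.78 here and -1.20 when all probes set the 75th percentile. Spot noise was small beside the spread between arrays for this probe.

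A_51_P205334 lay below both earlier groups at 10 weeks. It measured -4.47, -4.11 and -3.91 at 0 weeks, -1.66, -1.31 and -1.36 at 1 week, -1.02, -1.16 and -1.41 at 2 weeks, and -2.17, -1.85 and -2.23 at 10 weeks. The 10-week arrays were 1.85-fold below the 2-week arrays (-0.89 ± 0.19 SE, adjusted p = 0.00776) and 0.64 ± 0.19 below the 1-week arrays on the log2 scale (adjusted p = 0.0342 by limma). The remaining member called lower against 2 weeks, A_52_P408757, is named after its values were seen. It measured 0.55, 0.65 and 0.52 at 1 week, 0.68, 1.09 and 1.19 at 2 weeks, and 0.20, 0.51 and 0.03 at 10 weeks. Its 10-week arrays too lay below both groups (-0.74 ± 0.19 SE against 2 weeks, adjusted p = 0.0173 by limma). Against 1 week the difference was -0.33 ± 0.19 (SE) and was not called (adjusted p = 0.227 by limma).

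The other 2 members called lower at 10 weeks than at 1 week are named because the count was small, after their values had been seen.
A_52_P480044: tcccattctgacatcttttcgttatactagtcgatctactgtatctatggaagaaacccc
A_55_P1962723: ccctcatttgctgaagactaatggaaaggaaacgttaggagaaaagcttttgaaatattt
A_55_P1962723 measured -7.43, -5.91 and -5.34 at 0 weeks, -1.96, -0.51 and -0.74 at 1 week, -2.92, -1.64 and -0.61 at 2 weeks, and -2.94, -4.58 and -3.50 at 10 weeks. The 1-week arrays were the highest as a group, and the 10-week arrays were 6.09-fold below them (-2.61 ± 0.69 SE, adjusted p = 0.02 by limma). Against 2 weeks the fall was -1.95 with an adjusted p of 0.0509 by limma, and it was called under 5 of the 6 scalings. A_52_P480044 measured -3.52, -2.55 and -2.67 at 1 week and -4.72, -4.73 and -4.60 at 10 weeks, a fall of 1.77 on the log2 scale (adjusted p = 0.0102 by limma). Both were below background on every 0-week array, and above it on every later array.

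Within groups, the members' deviations from the group means had a median pairwise correlation of 0.25. The same value was not computed for catalogue probes, so whether members deviated together more than other probes was not tested. The members spread more widely than tested catalogue probes, which were not matched to them in level. The median SD over 3 arrays was 0.30, 0.34, 0.28 and 0.27 from 0 to 10 weeks for the members and 0.19, 0.23, 0.20 and 0.21 for tested catalogue probes. Replicate 3 was the highest 0-week array for 67.2% of members, beside 42.8% of catalogue probes, and replicate 1 the lowest for 61.8% beside 33.3%. At 1 week, replicate 1 was lowest for 67.2% of members and 43% of catalogue probes. At 2 weeks, replicate 3 was highest for 57.3% and 33.4%. The rule names no array of a group as high or low, but it depends on single arrays through the group means and the order of arrays. A low later array or a high 0-week array can keep a probe out, and a low 0-week array can bring one in. Leaving out 0-week replicate 1 left 100 members that met the rule, the lowest number with any 1 array left out. The shares of members by replicate are thus a description and no test.

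Grouping the members by the correlation of their deviations from the group means over the 12 arrays gave 17 sets, of which 3 held 10 or more members; the grouping was made on these data and is a description. The largest set, with 35 members, had 1-week replicate 2 high (median deviation 0.45) and replicate 1 low (-0.61). Its median 2-week mean was 0.41 below the 1-week mean, and it holds A_51_P169476, A_51_P339843 and A_51_P112355, whose means were highest at 1 week. The next, with 25 members, had 0-week replicate 1 low (-0.37) and 2-week replicate 3 high (0.31), and its median 2-week mean was 0.41 above the 1-week mean. It held 6 of the 7 members called lower at 10 weeks than at 2 weeks, beside 5 called higher; of tested catalogue probes 12.2% and 16.4% were so called. The set of 16 had 10-week replicate 1 high (0.55) and replicate 3 low (-0.49), and none of its members was called in that comparison.

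That set of 16 holds a pair of members that share 16 bases, in capitals, at different places in the probe.
A_51_P210310: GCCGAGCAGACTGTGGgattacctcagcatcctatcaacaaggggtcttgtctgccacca
A_51_P478172: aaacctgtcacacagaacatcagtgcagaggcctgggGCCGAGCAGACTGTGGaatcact
A_51_P210310 measured -2.61, -3.23 and -2.30 at 0 weeks, -1.5, -0.61 and -1.19 at 1 week, -1.68, -1.05 and -0.74 at 2 weeks, and 0.02, -1.47 and -1.20 at 10 weeks. A_51_P478172 measured -2.64, -3.05 and -2.26 at 0 weeks and 0.19, -1.29 and -1.13 at 10 weeks. Over the 12 arrays both followed each other at a correlation of 0.986, which includes the differences between groups. In both, 10-week replicate 1 stood well above the other 10-week arrays.

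The 6 members that begin with 5 C make up 4.58% of the members, while 51 catalogue probes (0.0987%) and 51 custom probes (0.0543%) begin so. A_55_P2037081 measured -3.11, -4.26 and -3.25 at 0 weeks, -2.36, -1.87 and -0.90 at 1 week, -2.03, -2.39 and -2.85 at 2 weeks, and -0.81, -1.76 and -1.82 at 10 weeks. A_52_P476877 measured -6.17, -4.71 and -5.01 at 0 weeks, -3.92, -3.46 and -2.44 at 1 week, -3.41, -4.17 and -3.33 at 2 weeks, and -1.55, -2.46 and -2.43 at 10 weeks. In both, 1-week replicate 3 and 10-week replicate 1 were the highest arrays of their groups. Over the 6, the median difference from the 0-week mean was 1.25, 1.29 and 2.19 on the 3 1-week arrays and 2.53, 1.68 and 1.84 on the 10-week arrays. Against 2 weeks, A_52_P476877 was 2.80-fold and A_55_P2924238 2.07-fold higher at 10 weeks (adjusted p = 0.0318 and 0.028 by limma), and the other 4 were not called, with differences of 0.31 to 0.96. Each of the 2 calls held under 2 of the 6 scalings.

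Probes with such a start that are not members were also mostly higher than at 0 weeks, and the rule limits how far those from the catalogue could differ. All 102 passed the background filter and were tested. The 45 catalogue ones outside the members had median differences from 0 weeks of 0.45, 0.42 and 0.52 at 1, 2 and 10 weeks, with 45, 41 and 42 of them above 0. The 51 custom ones had medians of 0.94, 0.68 and 1.31, with 48 above 0 at each time, beside -0.06, -0.14 and 0.36 for custom probes with no C at the start. Catalogue probes with no C at the start had medians of 0.02, 0 and 0.10, those with 4 had 0.12, 0.11 and 0.28. In the 45 catalogue probes, too, 1-week replicate 3 (median 0.82) and 10-week replicate 1 (0.71) were the highest arrays of their groups.

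The same arrays stood out in a pair of control probes for Gapdh, a glycolytic enzyme. The log2 signal of the probe numbered 5, less the one numbered 3 on the same array, was 1.38 to 1.57 at 0 weeks, 1.56, 1.63 and 2.12 at 1 week, 1.90, 1.83 and 1.68 at 2 weeks, and 2.40, 1.92 and 1.98 at 10 weeks. For Pgk1, another glycolytic enzyme, the difference was -2.25 to -2.0 at 0 weeks and -1.96 to -1.58 on the later arrays. For Pgk1, 1-week replicate 3 and 10-week replicate 1 were not the highest arrays of their groups. The part of what these control probes report in the members' values was not tested. Without the 6 members that begin with 5 C, 125 were left. Against 2 weeks, 24 of them were called higher and 7 lower at 10 weeks (19.2% and 5.6%, beside 16.4% and 12.2% of tested catalogue probes). Against 1 week, 36 and 3 were (28.8% and 2.4%, beside 14.6% and 13.2%).

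A different word, CCCAGCAC, occurred in 5 members (3.82%) and in 70 catalogue probes (0.135%) on the printed strand; it was picked after the members' sequences had been compared with those of other probes. Its reverse complement GTGCTGGG was in 1 member and 63 catalogue probes. Capitals mark the first occurrence of the word, and AATAAA.
A_55_P2013983: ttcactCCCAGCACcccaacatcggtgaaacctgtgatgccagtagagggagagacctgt
A_55_P2022399: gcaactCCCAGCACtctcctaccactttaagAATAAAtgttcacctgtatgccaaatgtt
A_55_P2506805: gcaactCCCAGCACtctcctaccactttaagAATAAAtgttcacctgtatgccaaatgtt
A_55_P2723214: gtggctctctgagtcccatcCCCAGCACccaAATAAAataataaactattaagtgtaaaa
A_66_P102818: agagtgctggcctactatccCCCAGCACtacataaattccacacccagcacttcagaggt

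A_55_P2022399 and A_55_P2506805 carry the same 60 bases under separate IDs, so they are repeated measurements of 1 sequence and not independent members. The former measured -1.74, -1.49 and -2.01 at 0 weeks, -0.54, -0.42 and -1.09 at 1 week, 0.14, -0.36 and -0.21 at 2 weeks, and -0.10, -0.01 and 0.02 at 10 weeks. The latter measured -1.77, -1.30 and -1.48, then -0.24, -0.50 and -0.63, then 0.19, -0.29 and 0.03, and at last 0.11, 0.10 and 0.23. The copies followed each other at a correlation of 0.97 over the 12 arrays, and both were higher at 10 weeks than at 1 week (0.66 and 0.60 on the log2 scale, adjusted p = 0.0427 and 0.0328 by limma). The former was called under 2 of the 6 scalings and the latter under 5.

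A_55_P2013983 measured 2.42, 2.93 and 2.78 at 0 weeks, 3.94, 3.89 and 3.85 at 1 week, 4.44, 4.16 and 4.41 at 2 weeks, and 3.97, 4.13 and 4.21 at 10 weeks. A_55_P2723214 measured 0.88, 0.97 and 0.63, then 1.92, 2.28 and 2.13, then 2.68, 2.35 and 2.66, and at 10 weeks 2.64, 2.88 and 2.82. The latter was 0.67 ± 0.16 (SE) higher at 10 weeks than at 1 week (adjusted p = 0.015 by limma), while the former differed by 0.21 ± 0.16. A_66_P102818 had group means of -2.29, -1.23, -0.84 and -0.48 and was 0.75 higher at 10 weeks than at 1 week (adjusted p = 0.0412 by limma), a call made under 2 of the 6 scalings. None of the 5 was called at 10 weeks against 2 weeks. Of the 65 catalogue probes with the word outside the members, 55 were tested, and their median differences from 0 weeks were -0.01, -0.03 and 0.39 at 1, 2 and 10 weeks. The rule itself separates these probes from the members by such differences.

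Other sequence features occurred in shares closer to those of the catalogue. AATAAA was in 12 members (9.16%) and 10.3% of catalogue probes, and ATTAAA in 3.82% and 3.97%. ATTTA, the core of AU-rich elements, was in 4 members (3.05%) and 8.27% of catalogue probes. The dinucleotide CG was in 54.2% and 50.6%. Median GC content was 45% in the members and in tested catalogue probes, and 41.7% over all catalogue probes. These shares were counted on the printed strand and carry no test. No member shared 20 bases with any of the 32851 RefSeq promoter windows or 2743 microRNA entries supplied as reference, which says only that those letters are not in these windows.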

How the data were processed

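The authors read the scans with Agilent Feature Extraction (version 10.7.1.1, per the file headers), and the processed signal they deposited is an intensity after background subtraction. The authors also deposited a table of log2 values per probe whose normalization is not given in the sources used here; its columns share a median of 2.92, and the lowest correlation with an array's own log2 processed signal was 0.995. The selection rule was applied to that table, and all levels and tests came from the processed signal. Spots marked by the scanner software as uneven or as outliers were left out, and repeated spots were averaged as log2 values. Probes that passed background on 3 or more arrays (62391) were tested with limma 3.58.1 in R 4.3.3 on 4 group means, with Benjamini-Hochberg adjustment over all of them. The procedure was tested on simulated data with independent noise for each probe and array. Those data hold no deviations shared between probes or between arrays of a slide, so they do not cover such effects. Having 3 arrays per group limits the precision.

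Members and sequence sets were chosen with earlier results of these data known. Named members are the 10 with the highest level after 0 weeks, the 6 largest rises and 6 largest falls called at 10 weeks against 2 weeks without overlap, the 5 largest and 5 smallest deposited differences at 10 weeks, and those at each threshold. The files do not pair probes with genes, so the gene lists and cell type markers planned for them could not be used. Alternatives were the scaling (75th percentile over all probes, quantile, cyclic loess, normexp with an offset of 50, the deposited log2 table), the filter on dim probes, each array left out, a replicate block, the slide as a random block, and a fit of the groups compared alone.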

Additional observations from a re-analysis of the deposited data

How the results depend on the processing

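The members called at 10 weeks numbered 33 against 2 weeks and 40 against 1 week. Over the other scalings they numbered 26 to 48 and 28 to 51, with the splits given beside the results. Without a filter on dim probes they were 27 and 30. Members higher and lower were then 15.3% and 5.34% against 2 weeks, beside 9.94% and 5.85% of tested catalogue probes. Against 1 week they were 21.4% and 1.53%, beside 9.02% and 6.62%. With only probes above background on all 12 arrays, 28 and 34 of 104 were called. The shares in the same order were 20.2% and 6.73% beside 14.2% and 15.5%, then 27.9% and 4.81% beside 15% and 17.5%. A fit of the groups compared alone called 41 and 29. Its shares were 25.2% and 6.11% beside 15.9% and 9.68%, then 19.8% and 2.29% beside 10.8% and 8.58%. Leaving out 1 array gave 23 to 40 members against 2 weeks and 24 to 43 against 1 week. Of tested catalogue probes 10.2% to 17% were then higher and 6.57% to 12.5% lower against 2 weeks. Against 1 week 9.14% to 14.5% were higher and 7.99% to 12.9% lower. Under other scalings the rule's differences and order were counted without its level threshold. They were met again by 112 to 129 members, apart from normexp, under which 34 met them. That correction starts from the mean spot signal and local background in place of the processed signal. It also adds an offset of 50 to every signal, which shrinks differences between dim values. The share of each in the lower count was not tested. Leaving out 1 array left 100 to 128 members by the full rule in the deposited table, with the level threshold. A replicate block gave 36 and 42 calls. Members higher and lower were 20.6% and 6.87% against 2 weeks, beside 15.3% and 11.3% of tested catalogue probes. Against 1 week they were 26.7% and 5.34%, beside 13.4% and 12.4%. Same-numbered arrays correlated at -0.099 to 0.191 in their deviations, and 4 of 12 arrays correlated best with their own number. The values thus show no sign that numbers pair the arrays, though 3 arrays per group cannot exclude it. The slide as a random block gave 46 and 47 calls at an estimated correlation of -0.0892. Members higher and lower were 28.2% and 6.87% against 2 weeks, beside 21.1% and 15.8% of tested catalogue probes. Against 1 week they were 30.5% and 5.34%, beside 18.4% and 16.1%. Since each slide held 1 time point only, that fit cannot separate slide from time point. Of the 12 named differences at 10 weeks against 2 weeks, none reversed under the 22 alternatives run for 8 of them or the 21 run for the other 4, which are not above background on all 12 arrays. The call held under all that were run for 6 and 2 of these. The count without members that start with 5 C was added after the data were seen. The 3 arrays per group and the 8 members below background at 0 weeks limit what the differences show.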
